A study of Physcomitrium patens with 10 samples.

Results

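The miR1223 family comprised 10 of the 280 mature miRNA names measured in the leafy shoots, or gametophores, of Physcomitrium patens, a moss. Its members were chosen by name, as every name that begins with ppt-miR1223, and carry the letters a to j. The family was singled out with the same levels already known, in particular that most of its names were higher in dried shoots, so its differences from hydrated shoots are a description and carry no test. Small RNAs came from shoots on BCD medium in 5 states. Hydrated shoots (HD) were the reference. Drying was moderate (MDH, also labelled mild) or so severe that the shoots were desiccated (SDH). Rewetted shoots were partially (PRE) or fully (FRE) rehydrated. The labels name no genotype, age, degree of water loss or duration for any state. By the titles there were 2 samples per state and 10 in all. For 7 of these the wording of the treatment label does not match the state in the title, where moderate was the wording sought for MDH. The values are the authors' single level per state in RPM (reads per 1000000), with the replicates already combined. No value below therefore has an error or a replicate check, the depth behind it is unknown, and no order of neighbouring levels can be set against a spread.

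Plant miRNAs are short RNAs that a DICER-LIKE enzyme cuts from the stem of a folded transcript. An ARGONAUTE protein holds the mature strand, which pairs with messenger RNAs of nearly complementary sequence and directs their cleavage or silencing. A family holds the mature strands of several loci, often the same or differing in few bases, and letters mark the loci. Mosses have, beside the miRNA families they share with flowering plants, many families with numbers not in use there. Gametophores have no thick cuticle and lose water quickly in dry air, and those of this moss survive considerable drying. Targets of miR1223 and the sequences of its members were not analysed here.

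The family was dominated by miR1223a in every state. The mature strand listed as ppt-miR1223a was measured at 406.6 RPM in HD and 249.9 in MDH, 622.9 in SDH, and after rewetting 399.6 in PRE and 324.2 in FRE. Its level was highest in desiccated and lowest in moderately dehydrated shoots, a ratio of 2.49 between both dried states. The fully rehydrated level lay below the hydrated one. In whole shoots, fewer cells that make a miRNA and less of it per cell cannot be told apart. No other member was lower in MDH than in HD, and miR1223a lay above HD in SDH alone.

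miR1223b and miR1223c came next and differed by at most 0.8 RPM from each other in any state. Of this pair, ppt-miR1223b stood at 24.3 RPM in HD, then 25.3 in MDH and 56.7 in SDH, with 49.4 in PRE and 26.3 in FRE. Its levels formed a low set of HD, MDH and FRE and a high set of SDH and PRE. ppt-miR1223c stood at 24.1, 25.2, 56.5, 50.2 and 26.2 RPM in the same order of states, and reads shared by such copies cannot be assigned to either one. ppt-miR1223d measured 11.4 RPM in HD and 22.1 in MDH, 29.7 in SDH, and after rewetting 27.0 in PRE and 13.8 in FRE. It was thus already near its high levels in MDH, where miR1223b and miR1223c were not, and lay close to HD again in FRE.

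miR1223e, miR1223f and miR1223g were scarcer, and ppt-miR1223f and ppt-miR1223g had the same value in every state. Both stood at 3.4 RPM in HD, then 9.9 in MDH and 9.1 in SDH, with 8.1 in PRE and 7.9 in FRE. Their highest level was in MDH, and in FRE they had not come back to the hydrated level. ppt-miR1223e equalled them in HD, MDH and FRE, with 9.0 RPM in SDH, and was apart from them in PRE, with 6.4 RPM. The other 3 members were near the lower end of what was measured. ppt-miR1223h measured 0.5 RPM in HD and 3.9 in MDH, 3.8 in SDH, and after rewetting 3.2 in PRE and 1.5 in FRE. ppt-miR1223i was at 0.5, 4.9, 4.6, 3.1 and 1.6 RPM, and so had its low and high states in common with miR1223h. ppt-miR1223j was at 1.8 RPM in HD, then 1.9 in MDH and 3.7 in SDH, with 3.3 in PRE and 2.8 in FRE. Its levels were low in HD and MDH and higher in the other states, the same division as for miR1223b apart from FRE.

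**Figure D1:**
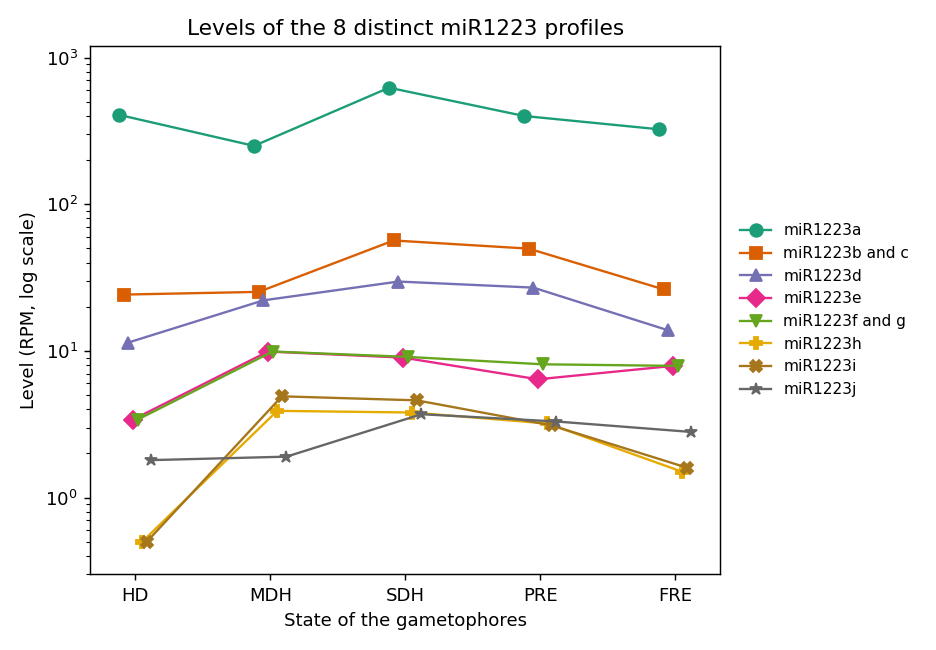
Level in RPM (log scale) of the 8 distinct miR1223 profiles in the 5 states, with 1 authors' value per state and no error; miR1223b and c, and miR1223f and g, are drawn as their mean. miR1223a is lowest in MDH, at 249.9 RPM, and highest in SDH, at 622.9 RPM, whereas miR1223e to miR1223i are highest in MDH.

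The 10 names therefore gave 8 distinct profiles, when names that differ in no state by more than 5% or 0.5 RPM, whichever is larger, count as 1. As deposited, the highest level was in SDH for 5 names (a, b, c, d and j) and in MDH for the other 5 (e, f, g, h and i). The lowest level was in HD for 9 names and in MDH for miR1223a. On the scale of log2(RPM + 1) over the 5 states, Pearson's r between miR1223a and miR1223b was 0.75, between miR1223a and miR1223d 0.34, and between miR1223a and miR1223e -0.17. miR1223d and miR1223h had an r of 0.93. These coefficients describe 5 points each, which share 5 pools of libraries, and members may share reads.

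The make-up of the family differed between states, and shares within a state do not depend on how the states are scaled to each other. miR1223a held 84.8% of the RPM summed over the 10 names in HD, 68.9% in MDH and 77.4% in SDH, and on rewetting 71.6% (PRE) and 77.2% (FRE). With near-identical copies counted once its share was 90.0% in HD and 76.2% in MDH. miR1223b and miR1223c together held 10.1% in HD and 13.9%, 14.1%, 17.8% and 12.5% in MDH, SDH, PRE and FRE, so their share was highest in partially rehydrated shoots. miR1223e, f and g together held 2.13% in HD and 8.18% in MDH, their highest share, and 3.38%, 4.05% and 5.64% in SDH, PRE and FRE. Since their values are the same in HD and MDH, reads that they share may enter these shares more than once. miR1223d held 2.38% in HD and 6.09% in MDH. The share of miR1223a was lower than in HD in each of the 4 other states.

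**Figure D2:**
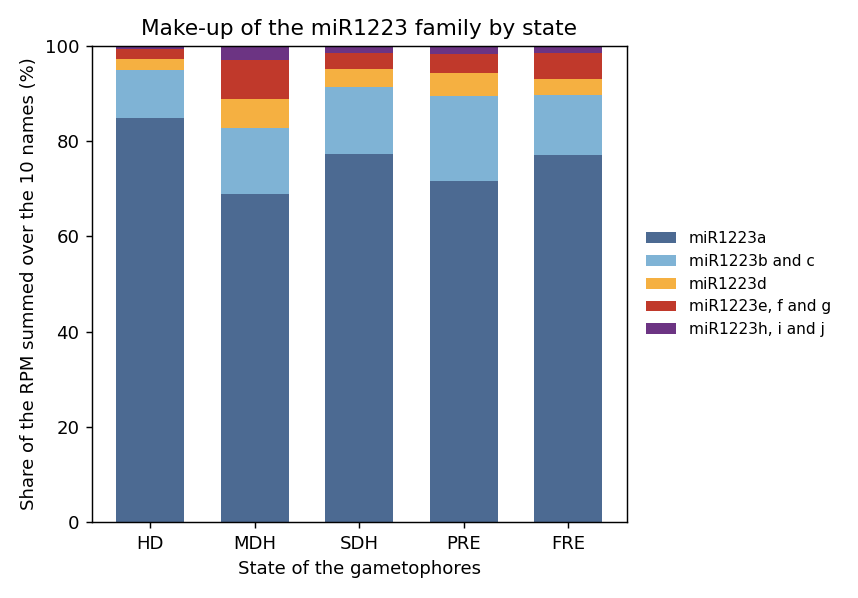
Share (%) of the RPM summed over the 10 miR1223 names held by miR1223a, by b and c, by d, by e to g and by h to j, in each state, with copies counted separately. The part of miR1223a is 84.8% in HD and 68.9% in MDH, and that of e to g is 2.13% and 8.18%.

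The ratio of miR1223a to miR1223d was 35.7 in HD and 11.3 in MDH, 21.0 in SDH, and after rewetting 14.8 in PRE and 23.5 in FRE. It was thus 3.15-fold lower in moderately dehydrated than in hydrated shoots, and 1.52-fold lower after full rehydration. The ratio of the mean of miR1223b and miR1223c to miR1223d stayed between 1.84 and 2.12 in HD, SDH, PRE and FRE and was 1.14 in MDH. MDH was thus the state in which the proportions of these 3 names stood apart. Summed over the 9 names other than miR1223a, the level was 72.8 RPM in HD, then 113.0 in MDH and 182.2 in SDH, with 158.8 in PRE and 95.9 in FRE. These 9 names summed to more than in HD in every other state, including MDH, where miR1223a was lower. With near-identical copies counted once the sum was 45.2 RPM in HD, then 77.85 in MDH and 116.5 in SDH, with 100.9 in PRE and 61.75 in FRE.

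Summed over all 10 names, the family stood at 479.4 RPM in HD and 362.9 in MDH, 805.1 in SDH, and after rewetting 558.4 in PRE and 420.1 in FRE. The log2 fold changes of this sum against HD were -0.40, 0.75, 0.22 and -0.19, none of them past 2-fold. In MDH and FRE the sum has the sign of miR1223a, opposite to that of the other 9 names, while in PRE, where miR1223a was at -0.02, it has the sign of the other 9. Among the 108 family numbers of the data, miR1223 ranked between 28 (SDH) and 31 (HD and FRE) by summed level. Its part of the RPM summed over all names was 0.0577% in HD, then 0.0721% in MDH and 0.128% in SDH, with 0.137% in PRE and 0.0735% in FRE. That total moved as well, from 831487 RPM in HD to 407334 RPM in PRE, so the share was highest in PRE although the level was highest in SDH. The total also adds near-identical copies, such as the abundant miR535a, b and c, as separate names, so the share is not one of distinct reads.

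Each state was then compared with hydrated shoots. A call, higher or lower, needed a log2((RPM + 1)/(RPM + 1)) past 2-fold, among names of at least 3 RPM in the higher state. The 4 comparisons share the HD value, so a name that is low in HD tends to be higher in all of them, and they are not separate observations. miR1223h and miR1223i, at 0.5 RPM in HD, reach 3 RPM only where they are past 2-fold as well, so their calls follow from the minimum, and each count is given without them too.

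In moderately dehydrated shoots 5 of the 9 members above the minimum were higher and none was lower, while of the 209 names tested 11% were higher and 24.4% lower. Of the 103 names with a mean under 100 RPM over the states, to which miR1223b to miR1223j belong, 15.5% were higher and 20.4% lower. The higher names were miR1223e, f, g, h and i. Without h and i 3 of 7 were higher, all from the trio with equal values in HD and MDH. miR1223e, f and g each had a log2 fold change of 1.31 and miR1223d of 0.90, just short of the limit. miR1223b and miR1223c were at 0.06 and miR1223a at -0.70. miR1223j, at 1.9 RPM, lay under the minimum. The median over all names tested was -0.37, and median-of-ratios scaling moved it by 0.35. The names called in the whole table were 23 higher and 51 lower as deposited, and 30 and 35 with that scaling. With that scaling miR1223d was higher as well (1.23), miR1223a was at -0.35 and the family sum at -0.05.

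In desiccated shoots 8 of 10 members were higher and none was lower, while of the 215 names tested 18.6% were higher and 13.5% lower. Without h and i the count was 6 of 8. It holds 6 distinct profiles among the 8 names, or 4 without h and i. miR1223b and miR1223c were at log2 fold changes of 1.19 and 1.20, miR1223d at 1.31, miR1223e at 1.18, and miR1223f and miR1223g at 1.20. These 6 names lay between 2.33-fold and 2.68-fold above HD as plain ratios of RPM. The members not called were miR1223a, 1.53-fold above HD (0.61 on the log2 scale), and the scarce miR1223j (0.75). Among names with a mean under 100 RPM 25.7% of 109 were higher, against 11.3% of 106 more abundant names. This division by level was made after the values were seen.

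In partially rehydrated shoots 6 of 10 members were higher and none was lower, while of the 213 names tested 21.6% were higher and 18.8% lower. Of those with a mean under 100 RPM, 27.1% were higher. The higher members were miR1223c, d, f, g, h and i, and without h and i 4 of 8. miR1223c at 1.03 and miR1223b at 0.99 fell on either side of the limit although their levels, 50.2 and 49.4 RPM, were nearly the same. miR1223d was at 1.18, and miR1223f and miR1223g at 1.05. miR1223e was at 0.75, apart from its companions. miR1223a was back at the hydrated level, with a log2 fold change of -0.02 that became 0.09 with median-of-ratios scaling.

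In fully rehydrated shoots 3 of the 7 members above the minimum were higher, all from the trio miR1223e, f and g, and none was lower. Of the 209 names tested 15.3% were higher and 12% lower, and of those with a mean under 100 RPM 25.2% were higher. The 3 names share 1 level of 7.9 RPM and a log2 fold change of 1.02, so the count rests on 1 value just past the limit. miR1223b, c and d were at 0.11, 0.12 and 0.26, and miR1223a at -0.33. miR1223h, i and j, at 1.5, 1.6 and 2.8 RPM, lay under the minimum.

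**Figure D3:**
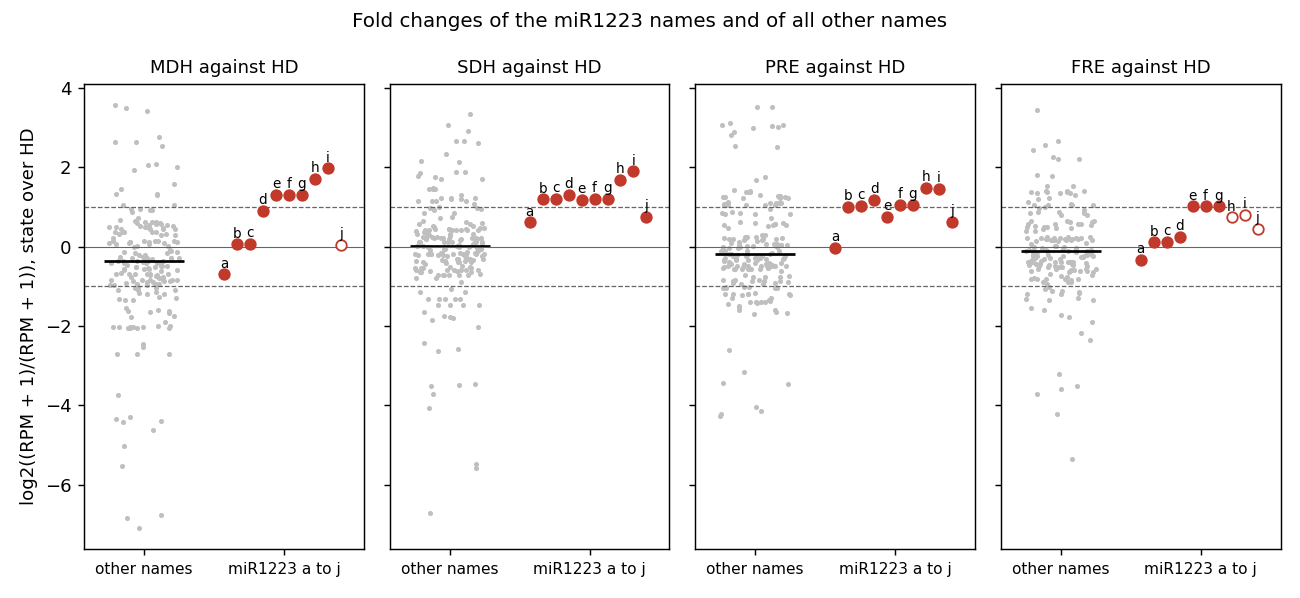
log2((RPM + 1)/(RPM + 1)) of each state over HD for the miR1223 names (red, lettered a to j; open where under 3 RPM in both states) and for the other names tested (grey); the black bar is the median of all names tested and dashed lines mark 2-fold. 8 red points lie past 2-fold in SDH and 3 in FRE, and miR1223a lies lowest of its family in each panel.

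Over the 4 comparisons, miR1223f and miR1223g, which have the same value in every state, were the members called higher in all of them. Names of other families, among them miR477f, miR534a and miR902h-5p, were higher in all 4 as well, so this is not particular to miR1223. miR1223a and miR1223j were called in none, but miR1223j was above the minimum in only 2. In the authors' deposited tables, names past 2-fold with p under 0.05 are marked. The authors' deposited tables mark as higher 5 members in MDH and 9 in SDH, then 7 in PRE and 5 in FRE, and mark none as lower. Of all names in the authors' deposited tables, 9.79% were marked higher in MDH and 20.3% in SDH, then 23.1% in PRE and 15.5% in FRE. The authors' deposited tables thus add miR1223j in SDH, miR1223b in PRE, and miR1223h and miR1223i in FRE, all of which are near or under the limits used here. For miR1223j in SDH the authors' deposited table gives p = 0.0105. For miR1223a in MDH, 1.63-fold lower and not marked, the authors' deposited table gives p = 4.16e-84. Those p-values come from levels rescaled to a total of 10000000 per state and so carry no spread between samples.

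Taken step by step, miR1223e to miR1223i had their largest difference between neighbouring states at the first drying. These steps are given as values, without a call. From HD to MDH 9 of 10 names went up and miR1223a went down. From MDH to SDH 5 names went up, led by miR1223a (2.49-fold) and by miR1223b and miR1223c (both 2.24-fold). miR1223e to miR1223i had log2 changes between -0.12 and -0.03. The factors of median-of-ratios scaling differed most between these states, 0.851 in MDH and 1.11 in SDH. With it the log2 fold changes against HD in MDH and SDH were -0.35 and 0.58 for miR1223a. They were 0.39 and 1.16 for miR1223b, and 1.61 and 1.14 for miR1223e. On partial rehydration all 10 names were, as deposited, lower than in SDH, with log2 changes between -0.64 and -0.13, and miR1223a moved most (1.56-fold lower). The median log2 fold change against HD over all names tested was also lower in PRE (-0.19) than in SDH (0.02). The steps were not recomputed with median-of-ratios scaling. Under that scaling, however, the log2 fold change of miR1223d against HD was 1.274 in SDH and 1.278 in PRE. The fall of miR1223d on partial rehydration therefore does not hold under it. The size of a step, and the direction of the smallest, can thus depend on the scaling. From PRE to FRE 9 names were lower again and miR1223e was higher. In that last step miR1223b, c and d were 1.88-fold, 1.92-fold and 1.96-fold lower, while miR1223f and miR1223g were 1.03-fold lower. The early step on rewetting was thus the larger one for miR1223a, and the late step for miR1223b, c and d.

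Other families with many names showed other patterns in the same tables, given here as values since the difference between families was not tested. Of the 24 miR902 names, 12 were higher and none lower in SDH among 23 tested (median log2 fold change 1.20), and 11 were higher and none lower in FRE among 22 tested (median 0.95). In MDH 5 of 22 were higher (miR902f-3p, h-3p, h-5p, i-5p and j-5p) and miR902k-3p was lower (median 0.48). In PRE 6 of 22 were higher and miR902c-3p, e-3p and g-3p were lower (median 0.78). The miR1223 medians over the names tested were 1.31 in MDH and 1.20 in SDH, then 1.04 in PRE and 0.26 in FRE. In MDH, SDH and PRE they include miR1223h and miR1223i, which reach the minimum only where they are high and drop out in FRE. These medians thus follow in part from the minimum, and so does their difference from those of miR902. All 8 miR1063 names were lower in both dried states, and none passed 2-fold in FRE. In PRE miR1063a, b, f and h were lower, at -1.05, while miR1063c, d, e and g lay just short of the limit, at -0.93. Values were nearly equal within each of these sets, and also among some miR902 names, such as miR902e-5p and miR902g-5p. The counts for both families thus hold fewer distinct profiles than names.

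The names numbered miR1210 to miR1222 are the nearest in number to miR1223. In MDH none of 17 tested was higher and 7 were lower. In SDH 1 of 18 was higher, miR1222b (log2 fold change 1.70), and 4 were lower, miR1217-5p (-1.77), miR1221-3p (-1.65), miR1221-5p (-2.44) and miR1222d (-1.06). In PRE miR1222b was again higher (1.38), and miR1221-5p (-1.66) and miR1222d (-1.42) were lower. In FRE 3 of 17 were higher, miR1219a, miR1219b and miR1219c (1.06 each), and miR1211* was lower (-1.03).

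Profiles like those of miR1223 were sought among 163 names of other families that reached 10 RPM, by Pearson's r of log2(RPM + 1) over the 5 states, with identical names counted once. An r over 5 pooled values is a description only. miR1223d was most like miR477c (r = 0.987), miR477e (0.987) and miR477b (0.987), which are near-identical copies of each other. miR477c measured 243.7 RPM in HD and 461.5 in MDH, 539.4 in SDH, and after rewetting 573.3 in PRE and 272.1 in FRE. It thus shared with miR1223d the higher levels in both dried states and in PRE and the near return in FRE. Of the candidates, 7 had an r of at least 0.9 with miR1223d, but near-identical names such as these miR477 copies count separately there. miR1223a was most like miR1047-3p (r = 0.933), miR1023b-3p (0.922) and miR1050 (0.878). miR1047-3p stood at 8.0 RPM in HD, then 3.7 in MDH and 10.1 in SDH, with 8.2 in PRE and 6.5 in FRE, with the same low point in MDH and high point in SDH. In the moss, miR1047 has been linked to DICER-LIKE1, a part of the machinery that makes miRNAs, a link not examined here. The pair miR1223b and miR1223c was most like miR902k-5p (r = 0.891), miR902l-5p (0.885) and miR536f (0.814), and no candidate reached 0.9 with it. miR902k-5p measured 11.8 RPM in HD and 17.6 in MDH, 34.3 in SDH, and after rewetting 30.0 in PRE and 21.9 in FRE, and in FRE stayed further above HD than miR1223b did.

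**Figure D4:**
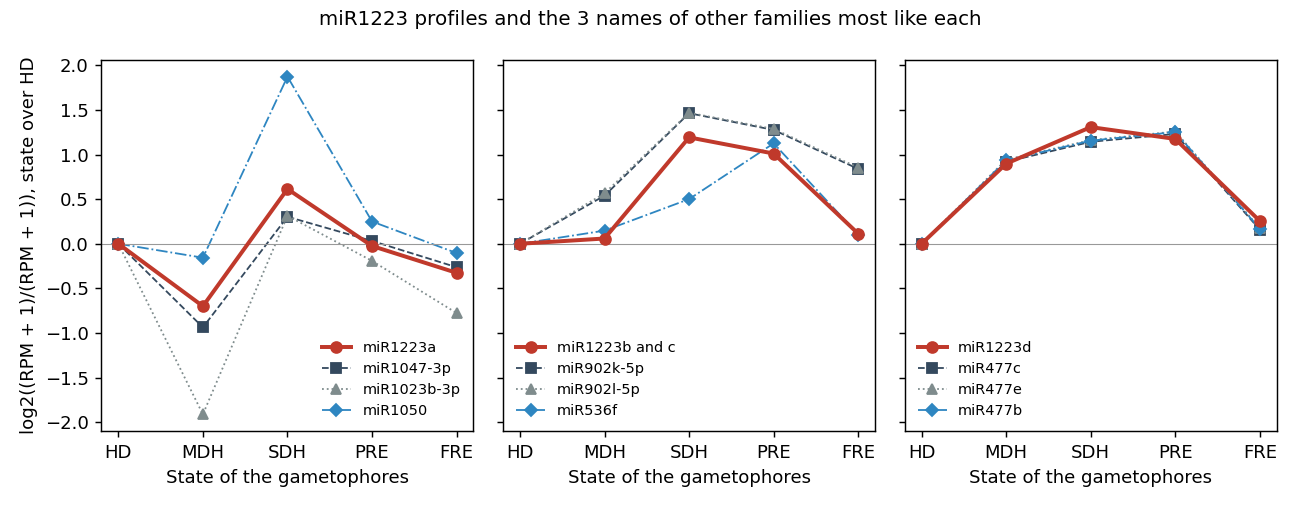
log2((RPM + 1)/(RPM + 1)) of each state over HD for miR1223a, for the mean of miR1223b and c, and for miR1223d (red), each with the 3 names of other families whose profile had the highest Pearson's r with it. The 3 miR477 names overlie miR1223d, and miR1023b-3p has the same order of states as miR1223a with a deeper low in MDH.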

How the data were processed

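Libraries were made, per the labels' protocols, from RNA of 18 to 30 nt with adaptors at each end, by reverse transcription and PCR, steps that copy some small RNAs better than others. Not given in the sources used here are the aligner, the miRNA reference and the treatment of reads matching several members. Groups follow the sample titles.

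The authors deposited 4 tables of levels in RPM, with 1 value per state in steps of 0.1 RPM, whose HD values are identical, and 4 tables of comparisons. Those give, per the file headers, a total and an expression value, treated as a score because the deposited total is 10000000 in every state and the value is 10 times the RPM. They also hold the authors' log2 fold changes and deposited p-values, from a test that the headers do not name. Those p-values above 1e-100 lay within 0.283 on the log10 scale of a two-sided Audic-Claverie count test that takes the scores as reads of equal totals. True read totals are unknown, so no interval was computed. No column held a single library, and 0 other columns of single samples were present.

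From the RPM, log2((RPM + 1)/(RPM + 1)) was computed and called at 2-fold among names of at least 3 RPM in the higher state (Python 3.11.15, pandas 2.3.3), a pseudocount that understates the change of scarce names. The calculation was checked on simulated data, with changes well past 2-fold placed only in names of at least 10 RPM in HD. That check does not cover changes near the limit or the scarcer members. All 10 members are named, with the 3 most similar profiles of other families for each profile reaching 10 RPM, and single members of the compared lists where a count was 5 or fewer. Alternatives were pseudocounts of 0.1 and 10 RPM, no minimum or 10 RPM, median-of-ratios scaling, copies counted once and the authors' marks. Members, lists and rules were chosen with earlier results of these data known.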

Additional observations from a re-analysis of the deposited data

How the results depend on the processing

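The counts of higher miR1223 names depend on low levels. With a pseudocount of 10 RPM no member passed 2-fold in any of the 4 comparisons, giving 0 higher names in each, and log2 fold changes of 22 calls, each upward, came to lie under the limit. With a minimum of 10 RPM there were 3 higher names in SDH, 2 in PRE and 0 in both MDH and FRE, because fewer names are then tested. By the authors' marks 5 names were higher in FRE in place of 3. Without miR1223h and miR1223i, an alternative added after seeing the data, 3 were higher in MDH in place of 5. Every other count of higher names, under the remaining alternatives of pseudocount, minimum, scaling and copies, lay within 1.5 times the reported one, no member was lower under any of them, and no family sum passed 2-fold. The single change of sign in a member's fold change against HD was that of miR1223a in PRE under median-of-ratios scaling. Changes between neighbouring states were not recomputed under the alternatives, but with median-of-ratios scaling miR1223d was no longer lower in PRE than in SDH. No paired analysis was possible because the columns hold 1 value per state for both replicates, and for the same reason leaving out a replicate was not run. The unknown depth limits miR1223h, miR1223i and miR1223j most, whose levels lay under 5 RPM.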
